A study of Mus musculus with 8 samples.

Results

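The genes described here encode proteins of the centrosome and centriole: every gene whose symbol in the deposited tables starts with Cep and a digit, together with Pcnt, Pcm1, Ninl, Nin, Ofd1, Sfi1, Cntrl and Cntrob. The rule found 43 genes of the 12587 in the tables of both stages, 41 of 11283 in spermatocytes and 42 of 10855 in round spermatids. Polyadenylated RNA was sequenced from spermatocytes, the germ cells in meiosis, and from round spermatids, the haploid cells that follow, of adult C57BL/6 mice. The animals were Larp7 conditional knock-out or control, with 2 libraries for each genotype in each stage, called biological replicates in the labels and not tied to single animals. Larp7 binds the 7SK RNA and takes part in the modification of U6 RNA. The cells were sorted by Hoechst staining and checked by nuclear shape, and the labels used here do not give the Cre driver or the age beyond adult. The tables number the sample groups of a stage and name no genotype. They are therefore called the first and second sample group, differences between them carry no genotype direction, and only the comparison of stages has a direction from the labels.

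A centriole is a short barrel of microtubules, and a pair of them inside a pericentriolar matrix forms the centrosome. New centrioles form beside old ones through a scaffold that recruits the kinase Plk4, and the older centriole carries appendages that dock it to the membrane as the base of a cilium. In male germ cells the centrosomes organise the meiotic spindles, and in the haploid spermatid a centriole becomes the base from which the sperm flagellum grows.

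Promoter sequence is shown for members whose reads differed most between stages, and for members that hold the X-box, the site that RFX factors bind in many promoters of ciliary genes. The windows come from RefSeq on GRCm38.p6, the same build as mm10, and 34 of the 43 members had one, covering 250 bases before to 50 after the gene start. The X-box was searched on both strands as GTNNCC and NGNAAC with 2 or 3 bases between them, where N is any base. A match was present for 5 of the 34 members (14.7%), namely Cep112, Cep19, Cep41, Cep44 and Cep83, and for 886 of 27025 genes with a window (3.28%). The 27025 are all genes with a window and were not limited to genes with splicing events, as members are, so the sets are unlike. The RFX half-site GTTGCC, which can lie within an X-box, was present for 9 members (26.5%) and for 14.1% of genes. TAACNG, which MYB factors bind, was present for 14 members (41.2%) and for 25.9% of genes. In the sequences below, stretches of at most 200 bases, capitals mark X-box and TAACNG matches on either strand, and the first Cep112 stretch joins an overlapping pair of them. Cep112 (chr11:108425016-108425214, plus strand) had the largest rise between stages, ranked by the most covered event present in both. It was the only member with 2 X-box matches. Cep85 (chr4:134187086-134187285, minus strand) had the largest fall by the same ranking. No match lay in the Cep85 bases shown, but Cep85 is among the 14 members with a TAACNG match in a window. Short windows are given for Cep41 (chr6:30693858-30693887, minus strand), Cep83 (chr10:94688768-94688797, plus strand) and Cep44 (chr8:56550661-56550690, minus strand).
Cep112: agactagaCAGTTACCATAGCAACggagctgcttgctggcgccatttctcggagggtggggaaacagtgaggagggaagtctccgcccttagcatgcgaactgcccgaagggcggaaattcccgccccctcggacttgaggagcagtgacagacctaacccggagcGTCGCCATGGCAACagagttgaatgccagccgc
Cep85: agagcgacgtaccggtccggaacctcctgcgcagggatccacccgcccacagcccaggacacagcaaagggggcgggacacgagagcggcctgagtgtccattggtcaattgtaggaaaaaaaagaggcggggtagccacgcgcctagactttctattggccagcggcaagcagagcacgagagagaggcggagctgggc
Cep41: gtcccgcGTTGCCCTTGGCAACcattgagc
Cep83: ccctccgaGTTTCCCGGGCTACctcaacct
Cep44: ttggtacgGTAGCCTTGGGAACctttcagt
A match is a description of these letters and no measurement of binding.

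The tables hold splicing events, not gene totals. The reads of a gene are therefore those of its most covered event, given as counts per 1000000 such reads over all genes of the library (CPM). Within a stage it is the most covered event of that stage's tables, and between stages the most covered event among those present in both. The 43 members had 542 events in spermatocytes and 409 in round spermatids, of which 403 and 300 were cassette exons. Cep55, which acts in abscission and the bridges between germ cells, was tabulated only in spermatocytes, and Cep295nl and Nin only in round spermatids. Nin, a subdistal appendage protein, had a single event with too few reads for a test. An event or gene was tested with a mean of at least 10 reads per library, and an event also needed a read of each form. Per length, the members with the most reads in spermatocytes were Cep63, Cep126 and Cep128, at mean length-corrected levels of 887, 452 and 367 per 1000000 length-corrected reads, and those with the fewest were Cep170b, Ofd1 and Sfi1, at 2.47, 4.01 and 4.02. In round spermatids Cep63, Cep126 and Cep290 were highest at 878, 465 and 425.5, and Nin, Sfi1 and Cep78 lowest at 0.166, 1.89 and 3.06. Most member events had near-complete inclusion: 61.4% of their 531 tested events in spermatocytes had a mean inclusion above 98%, against 50.6% of all events tested. In round spermatids these shares were 58.9% and 48.4%. They count events and not exons, since an exon read against several neighbours enters several events.

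Event reads per library ran from 49904607 to 102000320, and library 2 of the first group was the deepest in each stage. A 125-nt Larp7 exon (chr3:127544154-127544278) had inclusion levels in spermatocytes of 2.4% and 0.95% (first group) against 100% and 100%, and in round spermatids of 0.279% and 0.598% against 100% and 100%. These values were not used to name a genotype. All 8 spermatocyte markers were lower in round spermatids, and the 3 round spermatid and 4 elongating spermatid markers that could be tested were higher. Acrv1, Tnp1, Prm1, Tssk1 and Tssk2 had no value there. Of spermatogonial markers 2 of 3 tested were lower in round spermatids, of Sertoli cell markers 1 of 3, and of Leydig, peritubular and immune markers 0 of 2. In spermatocytes the summed reads of spermatogonial markers were 493 and 185 CPM (first group) against 69.3 and 66.4, and those of Sertoli cell markers 205 and 135 against 40.9 and 69.2. Library 1 of the first spermatocyte group was the highest for both lists. Gfra1, Nanos3, Amh and Sox9 had no value in spermatocytes.

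Between stages, reads of members went both ways. Of 40 members tested in both stages, 28 were called at an adjusted p below 0.05 with limma (Benjamini-Hochberg over all 8512 genes), 11 higher and 17 lower in round spermatids. Among all genes 78.3% were called (28.5% higher, 49.8% lower), against 70.0% of members (27.5% and 42.5%), so a called member is no exception. The stages could not be set on a common scale without a choice: scaling to summed reads gave a median log2 difference of -0.45 over all genes, and median-ratio scaling -0.02. The members' medians were -0.05 and 0.37, and under median-ratio scaling 21 were higher and 13 lower (52.5% and 32.5%, against 38.3% and 37.1% of all genes). The directions given below for called members hold under both scalings, except for Cep164, Sfi1, Cep76 and Cep295, which were called lower only under summed reads. Under both scalings 11 members were higher and 13 lower (27.5% and 32.5%, against 28.5% and 37.1% of all genes). In bulk RNA, fewer cells of a type and less RNA per cell cannot be told apart. For 21 of the 40 members, 16 of them called, the event present in both stages was not the most covered one in at least 1 stage. For 2 of the called members, Cep162 and Cep19, the most covered events of each stage stood in the other order, as given below. Of the 28 calls, 25 held without each library in turn, and those of Cep76 and Cep295 were among those that did not.

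**Figure D1:**
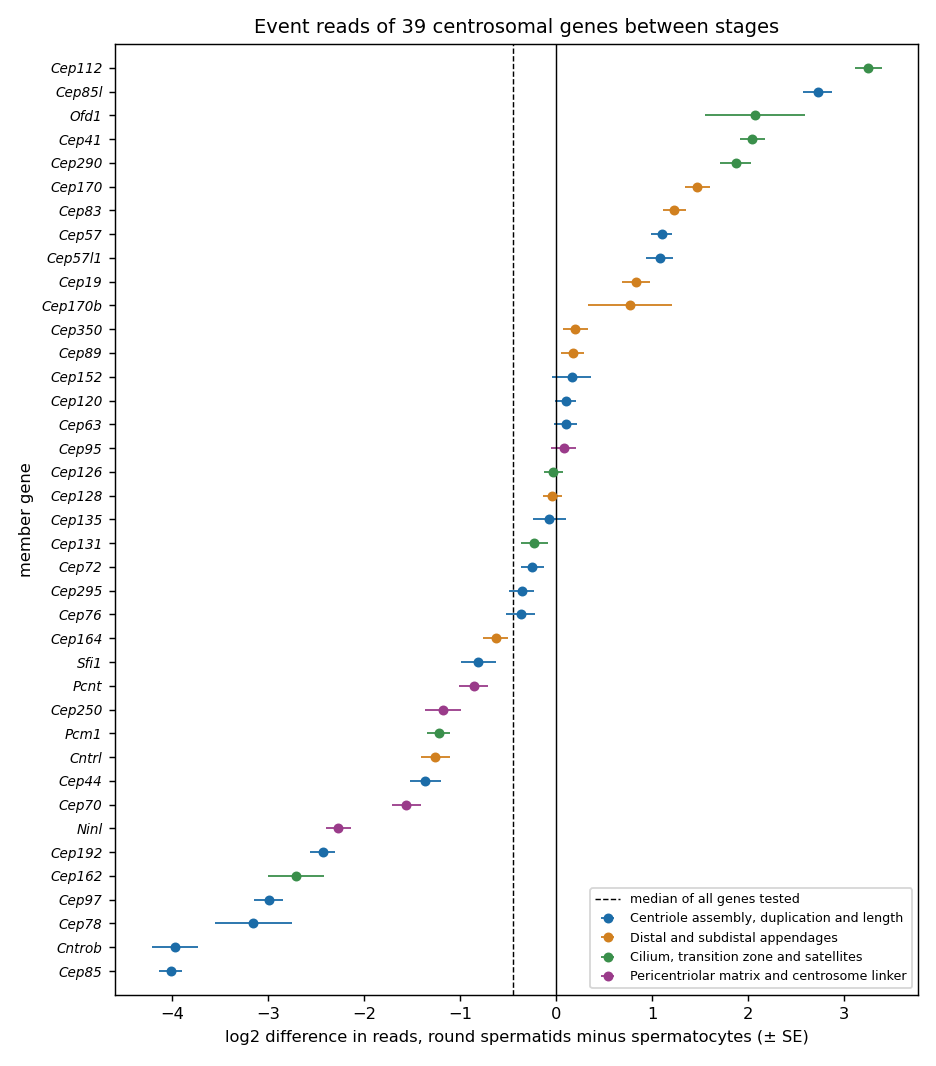
Log2 difference in event reads between round spermatids and spermatocytes for 39 of the 40 members tested (points, with bars for the SE of the limma fit), coloured by role and ordered by size; the dashed line is the median of all genes, -0.45. Cep112 lies at 3.25 and Cep85 at -4.01, and the 5 genes of matrix and linker sit at or below 0.08.

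Of the genes of the cilium, its transition zone and the centriolar satellites, 5 of 9 tested were higher and 2 lower under both scalings (28.5% and 37.1% of all genes). The median was 0.29 under summed reads. Under median-ratio scaling alone 6 were higher and 2 lower, with a median of 0.72. Values are listed per stage as the 2 libraries of the first, then of the second sample group. Cep112, a coiled-coil centrosomal protein, stood at 34.9, 36.1, 44.0 and 39.9 CPM in spermatocytes and 244.5, 336, 516 and 428.5 in round spermatids, a log2 difference of 3.25 (SE 0.14, limma adjusted p 5.43e-10). Every round spermatid library lay above every spermatocyte library, and the fitted rise was 9.51-fold. Cep41, needed for tubulin glutamylation in cilia, went from 27.3, 29.0, 34.6 and 29.9 to 117, 111.5, 142 and 125 (log2 2.04, SE 0.13, limma adjusted p 1.59e-08). Cep290, a gatekeeper of the transition zone, went from 81.0, 102.7, 83.0 and 75.1 to 220, 366, 306 and 379 (log2 1.87, SE 0.16, limma adjusted p 3.01e-07). Neither gene's stages overlapped. The most covered Cep41 event of the spermatocyte tables, another exon, stood higher there, at 38.7, 43.2, 44.2 and 54.7 CPM. Ofd1, an X-linked protein of the distal centriole and satellites, was called higher too (log2 2.07, SE 0.52), but its libraries overlapped: 10.03, 3.01, 0.199 and 1.28 in spermatocytes against 12.5, 7.31, 6.45 and 5.18. Pcm1, the scaffold of the satellites, fell by 1.22 (SE 0.12). Cep162, which promotes transition zone assembly, had 1 event in both stages, a retained intron, and the reads of that event differed by -2.71 (SE 0.29), with at most 3.46 CPM in round spermatids. Its other round spermatid event, a cassette exon, stood at 52.3, 89.7, 84.5 and 89.0 CPM there, while the retained intron was the only Cep162 event of the spermatocyte tables, at no more than 17.5 CPM. No direction is given for the gene as a whole. Cep126 and Cep131, which act in ciliogenesis, did not pass the test under summed reads, at -0.03 (SE 0.10) and -0.23 (SE 0.14). The most covered Cep131 event of spermatocytes, another exon, stood at 59.8, 86.0, 91.1 and 88.8 CPM. That of round spermatids stood lower, at 39.6, 33.9, 47.15 and 42.5 CPM, without overlap. These are different exons and were not tested against each other.

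Appendage genes had 3 of 9 tested members higher and 1 lower under both scalings (28.5% and 37.1% of all genes). The median was 0.20 under summed reads. Under median-ratio scaling alone 7 were higher and 1 lower, with a median of 0.63. Cep83, which anchors the distal appendages, stood at 142, 143, 125 and 113 in spermatocytes and 247, 326, 322 and 332 in round spermatids (log2 1.23, SE 0.12, limma adjusted p 9.20e-07). Cep170, of the subdistal appendages, rose by 1.47 (SE 0.13), and Cep19, which recruits a small GTPase to the ciliary base, by 0.83 (SE 0.15). All 3 were without overlap between stages. The Cep19 rise rests on the 1 event present in both stages, an alternative 3 prime splice site. Its most covered spermatocyte event, a cassette exon, stood at 47.2, 61.0, 57.2 and 56.9 CPM, against 50.3, 48.2, 58.7 and 51.3 CPM for its only round spermatid event, so that these overlapped. Cntrl, the centriolin of the subdistal appendages, fell by 1.26 (SE 0.15). Cep164, a distal appendage protein that recruits the kinase Ttbk2, was at -0.63 (SE 0.13) under summed reads and -0.20 under median-ratio scaling. Cep89, Cep128, Cep350 and Cep170b, between -0.04 and 0.77, did not pass the test under summed reads.

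**Figure D2:**
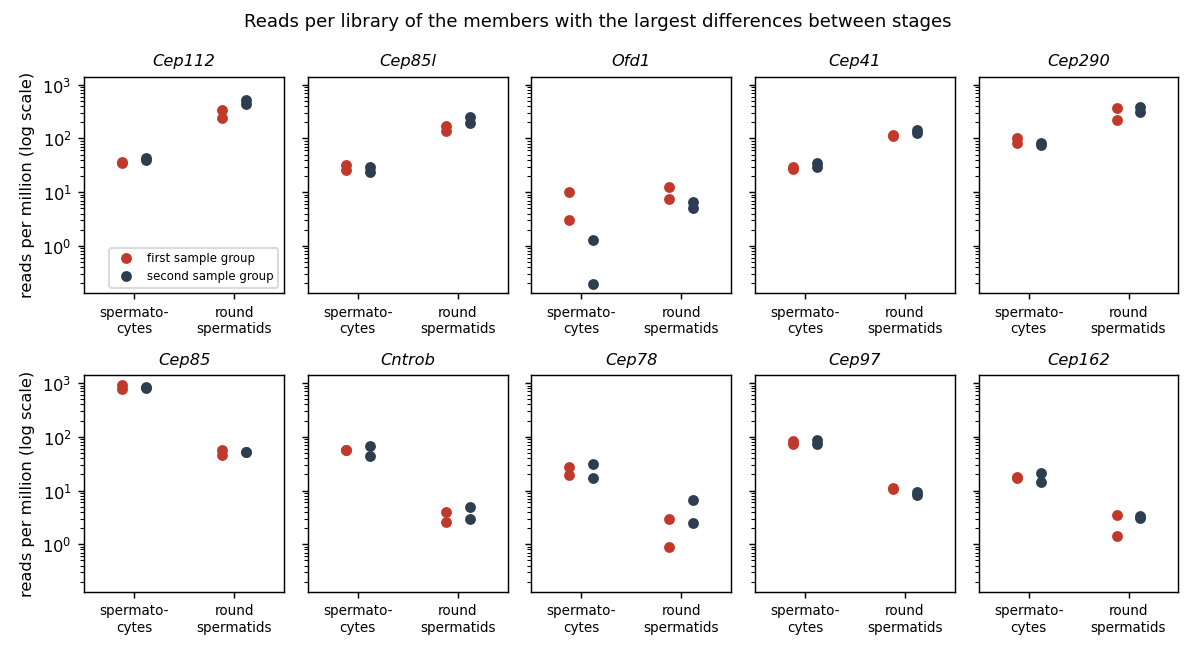
CPM (log axis) in each of the 8 libraries for the 5 members with the largest rise (top row) and the 5 with the largest fall (bottom row) in round spermatids, each at its most covered event present in both stages (for Cep162 a retained intron), red for the first and dark for the second sample group. Stages do not overlap in any panel but Ofd1, whose spermatocyte libraries run from 0.199 to 10.03.

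Genes of centriole assembly, duplication and length held the largest falls: 6 of 17 tested were lower and 3 higher under both scalings (37.1% and 28.5% of all genes). The median was -0.36 under summed reads. Under median-ratio scaling alone 7 were higher and 6 lower, with a median of 0.07. Cep85, a centrosomal protein that acts in centriole duplication with Stil, stood at 907.5, 783, 816.5 and 844 in spermatocytes and 57.6, 45.4, 52.0 and 52.9 in round spermatids. That is 16.1-fold lower (log2 -4.01, SE 0.12, limma adjusted p 1.33e-10), and its libraries spread little within a stage. Its paralogue Cep85l moved the other way, from 31.8, 26.2, 24.1 and 29.2 to 135, 169, 248.5 and 197.5 (log2 2.72, SE 0.15, limma adjusted p 3.44e-09). Cntrob, the tubulin-binding centrobin, went from 56.0, 55.9, 67.8 and 43.2 to 3.90, 2.57, 2.98 and 4.89 (log2 -3.97, SE 0.24, limma adjusted p 7.91e-09). Cep97, which caps centrioles together with Ccp110, fell from 82.3, 74.0, 87.6 and 73.7 to 11.4, 10.9, 9.53 and 8.21 (log2 -2.99, SE 0.15, limma adjusted p 2.32e-09). Ccp110 itself, no member here, was at 427, 455, 506 and 471 against 32.8, 24.4, 27.4 and 20.7, so both capping partners were low in round spermatids. Cep78 fell by 3.15 (SE 0.40) and Cep44, which acts in the conversion of centrioles to centrosomes, by 1.36 (SE 0.16). Cep192, the scaffold that recruits Plk4 and matrix proteins, went from 129, 112, 118 and 131 to 27.4, 27.5, 19.1 and 18.3 (log2 -2.43, SE 0.13, limma adjusted p 3.46e-09). Its partner in Plk4 recruitment, Cep152, was not called under summed reads, at 0.16 (SE 0.20), and neither was Cep63, which binds Cep152, at 0.10 (SE 0.12). Cep57 and Cep57l1, which work with Cep63, rose by 1.10 (SE 0.11) and 1.08 (SE 0.14). Sfi1, which binds centrin, was at -0.81 (SE 0.18), Cep295 at -0.36 (SE 0.13) and Cep76 at -0.37 (SE 0.15) under summed reads, and at -0.38, 0.07 and 0.05 under median-ratio scaling, where none of the 3 passed. Cep120, Cep135, a cartwheel protein, and Cep72 were at 0.10, -0.07 and -0.25 and did not pass under summed reads. Cep85 and Cep85l, Cep57 and Cep57l1, and Cep170 and Cep170b are paralogue pairs, and how the authors' alignment assigned reads that fit both was not tested.

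Of the 5 genes of the pericentriolar matrix and the centrosome linker, 4 were lower and none higher under both scalings (37.1% and 28.5% of all genes). The median was -1.18 under summed reads and -0.75 under median-ratio scaling, where 1 was higher. Ninl, a matrix protein that binds gamma-tubulin complexes, went from 296, 340.5, 380.5 and 391 to 94.4, 73.1, 67.5 and 59.4 (log2 -2.27, SE 0.13, limma adjusted p 3.99e-09). Cep70 fell by 1.56 (SE 0.15), Cep250, the linker protein that ties the centriole pair, by 1.18 (SE 0.19), and Pcnt, the pericentrin scaffold of the matrix, by 0.86 (SE 0.15). These 4 were without overlap between stages, as 68.4% of all genes and 25 of the 40 members were. Cep95 was at 0.08 (SE 0.13) and did not pass under summed reads. The Pcnt value is for the event present in both stages. Its most covered spermatocyte event, another one, stood at 121.5, 121.8, 131 and 129 CPM. The most covered Pcnt event of round spermatids stood at 19.95, 28.2, 33.7 and 31.2 CPM.

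The 5 members with an X-box match were all called between stages, where 28 of 40 members and 78.3% of all genes were. Of all genes 28.5% were called higher and 49.8% lower under summed reads. Cep112, Cep41, Cep83 and Cep19 were higher, by 3.25, 2.04, 1.23 and 0.83 on the log2 scale, and Cep44 was lower, at -1.36, with Cep19 at its 1 event present in both stages. Cep290, Cep170, Cep57 and Cep57l1 rose with no X-box match in their window, and the window's matches were read after the read values were known.

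Splicing of members also differed between stages. Of 288 member events tested in both stages, 29 in 16 genes were called (10.1%), where 12.5% of all 34455 events were. Inclusion was higher in round spermatids in 14 (4.86%, against 6.5% of all) and lower in 15 (5.21%, against 5.96%). By gene the share was 16 of 40, against 28.2% of all genes. Members had more tested events per gene (288 in 40 genes, against 34455 in 8512), so the shares by gene are not like for like. Differences of at least 10 points were seen for 9 called events, or 3.12%, against 4.68% of all events. Stages did not overlap for 22 member events, or 7.64%, against 12.3% of all events. Another test, a quasi-binomial fit of the same reads, also called 22 of the 29, in 14 genes. The count fell to between 14 and 25 without 1 library, lowest without library 2 of the first round spermatid group, and 12 events in Cep152, Cep170, Cep57l1, Cep63, Cep89, Pcm1 and Pcnt were called without each library in turn. It was 15 and 17 without library 1 or 2 of the second round spermatid group, and 18 without library 1 of the second spermatocyte group. In 8 called events the rarer form averaged under 5 reads per library. Sfi1 and Cep41 were called through such events only, and the quasi-binomial test did not call them.

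Exons of centriole duplication genes were among those with the largest differences. A 165-nt exon of Cep152 (chr2:125571669-125571833), a multiple of 3 bases, was included at 53.2%, 52.2%, 53.1% and 54.9% in spermatocytes and at 39.0%, 24.7%, 20.1% and 26.8% in round spermatids. The log2 odds of inclusion fell by 1.66 (SE 0.30, limma adjusted p 1.79e-06), with no overlap between stages. Reads of the gene did not pass the test under summed reads. A 91-nt exon of Cep57l1 (chr10:41809573-41809663), which is not a multiple of 3, went from 55.7%, 56.1%, 54.1% and 45.0% to 29.4%, 33.8%, 25.8% and 22.9% (log2 odds -1.50, SE 0.29, limma adjusted p 6.24e-06). An 87-nt exon of the same gene went from a mean of 96.5% to 88.9%. A 59-nt exon of Cep44 (chr8:56550063-56550121) went from 72.7%, 72.0%, 71.5% and 71.8% to 36.4%, 36.0%, 53.1% and 55.6% (log2 odds -1.59, SE 0.47, limma adjusted p 0.00822). That event rests on 11.8 reads of the rarer form per library and was lost without some libraries (limma adjusted p up to 0.0745). Against other neighbouring exons, with 44.1 such reads, the same Cep44 exon stood at means of 22.0% and 20.6%, overlapped between stages and was not called (limma adjusted p 0.913). Against yet another pair of neighbours it stood at 41.7%, 28.5%, 44.7% and 29.2% in spermatocytes and 25.6%, 21.4%, 27.4% and 21.0% in round spermatids, lower in every library but not called. The stage difference of this exon thus depended on the neighbours it was read against.

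Cep63 had 4 called events. A 33-nt exon (chr9:102621696-102621728) went from 56.1%, 52.9%, 53.8% and 53.3% to 63.6%, 67.1%, 68.4% and 64.6% (log2 odds 0.75, SE 0.18, limma adjusted p 0.000921). Read against its best covered pair of neighbours, the same exon stood at 89.6%, 89.9%, 92.7% and 92.0% against 89.4%, 91.4%, 92.4% and 93.1%, and against the next best covered pair at 28.9%, 30.6%, 33.8% and 31.4% against 25.6%, 28.0%, 37.3% and 32.0%. The stages overlapped in both. A 206-nt exon (chr9:102590328-102590533) went from 76.8%, 80.1%, 83.0% and 86.7% to 87.9%, 91.5%, 90.2% and 91.7% (log2 odds 1.07, SE 0.13, limma adjusted p 1.25e-13), and the neighbouring 280-nt exon from a mean of 68.0% to 76.5%. These 2 neighbours share the same skipping junction, with 569, 1030, 689 and 434 reads in spermatocytes and 380, 550, 379 and 274 in round spermatids, which leaves out both. Read against the junctions that leave out only 1 of them, each was included at 98.39% or more in every library. The called exclusive-exon event of the same pair reuses these reads, so the 3 events are not independent. Cep57, a partner of Cep63, had a 78-nt exon (chr9:13812633-13812710) at a mean of 63.0% in spermatocytes and 70.1% in round spermatids (limma adjusted p 0.0338). The stages overlapped, and within each stage both libraries of the second group lay above those of the first. Neither group difference was called (limma adjusted p 0.476 in spermatocytes and 0.641 in round spermatids). Read against another neighbour, the Cep57 exon stood the other way in spermatocytes, at 100% and 100% (first group) against 96.4% and 98.4%. That rests on 0 and 0 against 4 and 2 skipping reads and was not called (limma adjusted p 0.572). In round spermatids the groups overlapped in that event.

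**Figure D3:**
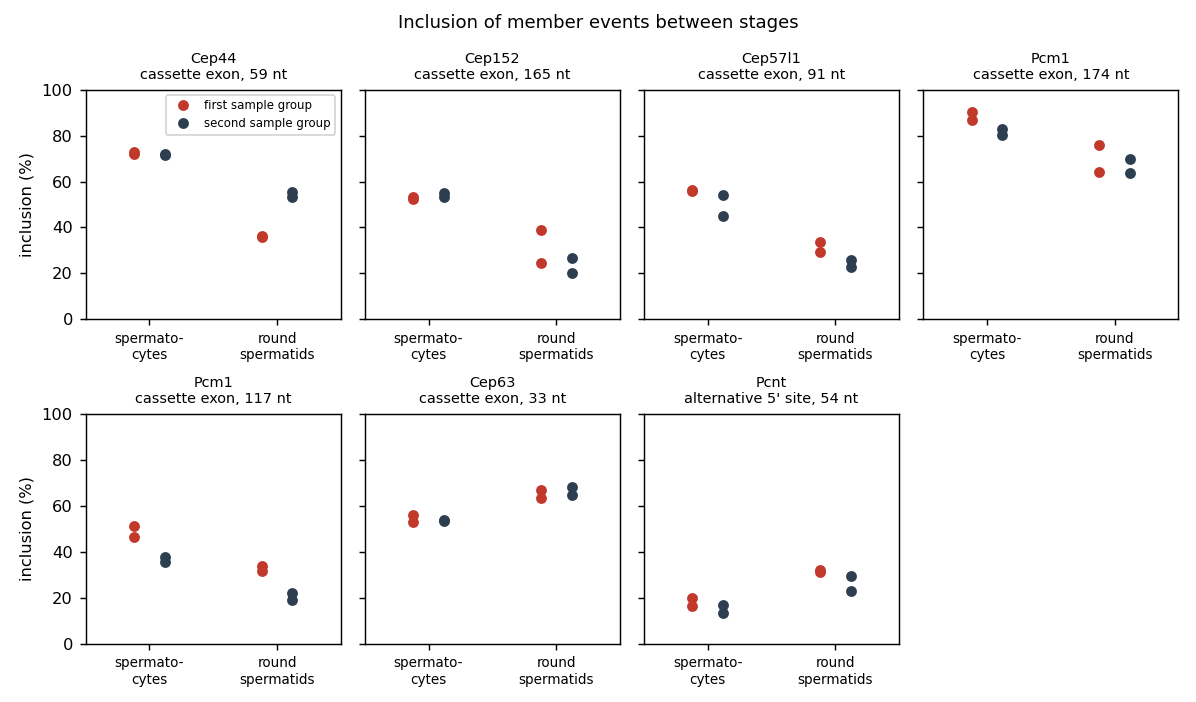
Inclusion level in percent in each library for the 7 member events with at least 10 points between stages that both limma and the quasi-binomial test called, red for the first and dark for the second sample group. In every panel all 4 round spermatid libraries lie on one side of all 4 spermatocyte libraries.

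Satellite and matrix scaffolds changed exons as well. Pcm1 had a 174-nt exon (chr8:41274995-41275168) at 90.2%, 86.6%, 80.1% and 83.0% in spermatocytes and 75.9%, 64.2%, 63.9% and 69.6% in round spermatids (log2 odds -1.42, SE 0.20, limma adjusted p 3.26e-11). A 117-nt Pcm1 exon (chr8:41261360-41261476) went from 46.5%, 51.5%, 37.8% and 35.7% to 33.7%, 31.9%, 22.0% and 19.1% (log2 odds -1.08, SE 0.27, limma adjusted p 0.000979). Both lengths are multiples of 3, and both exons were used less where Pcm1 had fewer reads. Pcnt used the longer form of a 54-nt alternative 5 prime splice site (chr10:76380163-76380216) at 19.8%, 16.6%, 13.4% and 16.9% in spermatocytes and 32.0%, 31.3%, 29.6% and 23.0% in round spermatids (log2 odds 1.08, SE 0.25, limma adjusted p 0.000257). A 230-nt Pcnt exon, from a mean of 66.0% to 48.7%, overlapped between stages and was not called by the quasi-binomial test (adjusted p 0.0584).

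Events were also called in appendage and cilium genes. Cep89 used the longer form of a 71-nt alternative 5 prime splice site (chr7:35420959-35421029) at 16.7%, 15.2%, 15.3% and 16.9% in spermatocytes and 22.3%, 24.7%, 25.8% and 26.1% in round spermatids (log2 odds 0.81, SE 0.19, limma adjusted p 0.000616). Its reads did not pass the test under summed reads. Under median-ratio scaling 7 of the 9 appendage genes were called higher, Cep89 among them. Cep112 had the largest rise in reads at an event present in both stages. It used a 63-nt exon over a 150-nt one at a mean of 23.7% in spermatocytes and 14.1% in round spermatids (limma adjusted p 0.00123). Cep170 had 5 called events, of which a 127-nt and a 235-nt exon form share their skipping reads and rose from means of 96.4% and 97.7% to 99.9% and 99.9%. Their skipping reads averaged 3.5 per library, and library 2 of the first spermatocyte group had 18 of them. The called exclusive-exon events of Cep164, Cep128 and Cep126 overlapped between stages, with means of 52.4% and 43.3%, 37.6% and 31.3%, and 25.1% and 20.4%. A 146-nt exon of Cep120, a centriole elongation factor, moved by 1.48 points.

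Between the sample groups of spermatocytes, 4 events in Cep164, Cep128 and Cntrob were called among 531 member events (0.753%), where 0.537% of all 61122 events were called. Inclusion in the first group was higher in 1 (0.188%, against 0.139% of all events) and lower in 3 (0.565%, against 0.398%), and 2 differed by at least 10 points (0.377%, against 0.232%). At an unadjusted p under 0.05 there were 63 (11.9%, against 8.59%). By gene the share was 7.32%, against 2.57% of all genes. Members had more tested events per gene (531 in 41 genes, against 61122 in 9860), so the shares by gene are not like for like. Cep164 was read at a 297-nt exon (chr9:45781952-45782248), with 80.4% and 82.7% (first group) against 97.5% and 98.2% (log2 odds -3.17, SE 0.67, limma adjusted p 0.00137). Its 147-nt neighbour (chr9:45784883-45785029) stood at 85.6% and 87.5% against 98.1% and 98.2% (log2 odds -2.90, SE 0.67, limma adjusted p 0.0069). Both Cep164 events count the same junction, which leaves out the 2 exons together and had 27 and 47 reads (first group) against 5 and 4. Against the junction that leaves out the 297-nt exon alone, inclusion was 83.5% and 74.6% against 78.9% and 82.3%, with overlapping groups (limma adjusted p 0.589). What differed was thus the joint loss of both exons, whose lengths are each multiples of 3. In round spermatids the joint junction had 3 and 16 against 3 and 1 reads, and neither event was called.

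Cep128, a subdistal appendage protein, included a 64-nt exon (chr12:91009563-91009626) at 17.2% and 17.8% (first group) against 10.5% and 9.4% in spermatocytes. The log2 odds were higher by 0.95 (SE 0.22, limma adjusted p 0.00564), with 291 reads of the rarer form per library. In round spermatids the same exon stood at 18.4% and 17.2% against 11.5% and 10.7%, without overlap, but it did not pass the test there (log2 odds 0.77, SE 0.25, limma adjusted p 0.418). In a fit of all 8 libraries the round spermatid difference had a limma adjusted p of 0.0476, and the authors' deposited table gives it an FDR of 0.000619. Cntrob had a 157-nt exon (chr11:69320818-69320974) at 92.1% and 87.2% against 98.8% and 99.1% (log2 odds -3.39, SE 0.85, limma adjusted p 0.0193), with 20 and 56 against 3 and 2 skipping reads. Read against other neighbours on 1 side, the same exon was included at 99.0% or more in every spermatocyte library. It was not called there (limma adjusted p 0.583 and 0.597), so the difference was seen for 1 skipping junction. Too few Cntrob reads remained in round spermatids to follow the called event: in that stage its skipping reads were 0 and 2 against 0 and 0.

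**Figure D4:**
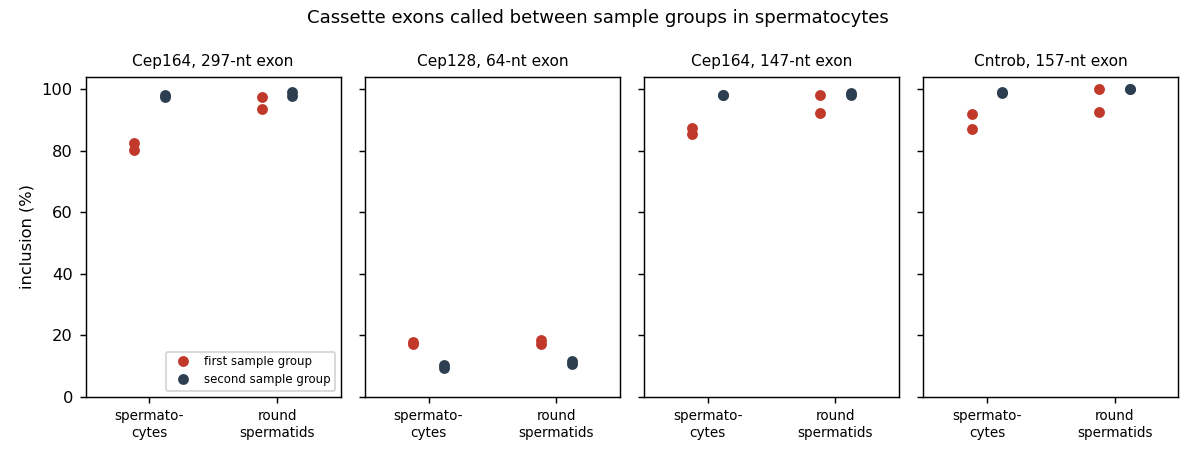
Inclusion level in percent per library for the 4 events called between sample groups in spermatocytes, in both stages, red for the first and dark for the second sample group. The sample groups of spermatocytes lie apart in all panels, and in round spermatids Cep128 stands at 17.2% and 18.4% against 10.7% and 11.5%.

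None of these 4 calls held without each library in turn. Without either library of the second group 0 member events were called, and without library 1 or 2 of the first group, when the lone library was assumed to vary like the other pair, 101 and 90 were. With the variance trend on total reads, without weights or with no minimum of reads, 0 were called, while the quasi-binomial test called 4. Groups did not overlap for 30.9% of member events and 32.4% of all events. Exons of Cep63 (206 nt) and Pcm1 (117 nt) came near the threshold: 76.8% and 80.1% against 83.0% and 86.7% (limma adjusted p 0.113), and 46.5% and 51.5% against 37.8% and 35.7% (limma adjusted p 0.142). In the fit of all 8 libraries the limma adjusted p was 0.0511 for Cep63 and 0.0346 for Pcm1, and the deposited FDR was 0.00417 and 0.00186. In round spermatids the Pcm1 exon stood at 33.7% and 31.9% against 22.0% and 19.1%, not called (limma adjusted p 0.641), and the Cep63 groups overlapped.

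Reads of 2 of the 41 members differed between the sample groups of spermatocytes, or 4.88%, where 5.54% of all genes did: 1 was higher in the first group (2.44%, against 4.71%) and 1 lower (2.44%, against 0.832%). At an unadjusted p under 0.05 there were 9 (22.0%, against 24.8%). CPM here are taken over the genes of the spermatocyte tables. Cep95 stood at 59.6 and 59.4 (first group) against 96.2 and 97.6 (log2 -0.70, SE 0.15, limma adjusted p 0.0252). Ofd1 stood at 8.11 and 2.46 against 0.165 and 1.05 (log2 3.25, SE 0.86, limma adjusted p 0.0471), from 82 and 49 against 2 and 13 reads. Spermatogonial and Sertoli cell marker reads were higher in the same group, with 6 of 8 and 3 of 4 tested markers called. Of spermatocyte markers 3 of 8 were called higher too, where 4.71% of all genes were. The part of these cell types in the Ofd1 difference was not tested. Without library 1 of the first group, neither passed (limma adjusted p 0.16 for Cep95 and 0.406 for Ofd1). Cep95 was also lost without library 1 or 2 of the second group (limma adjusted p 0.0804 and 0.0842), and Ofd1 without library 1 of it (0.186). Scaling to summed reads gave a median difference of 0.16 over all genes and median-ratio scaling -0.01. Under the latter 1 member was higher (4.62% of all genes were) and 5 were lower (12.2%, against 2.77%), with Cep128, Cep57l1, Cep164 and Sfi1 added to Cep95, at -0.62, -0.72, -0.57 and -0.68.

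**Figure D5:**
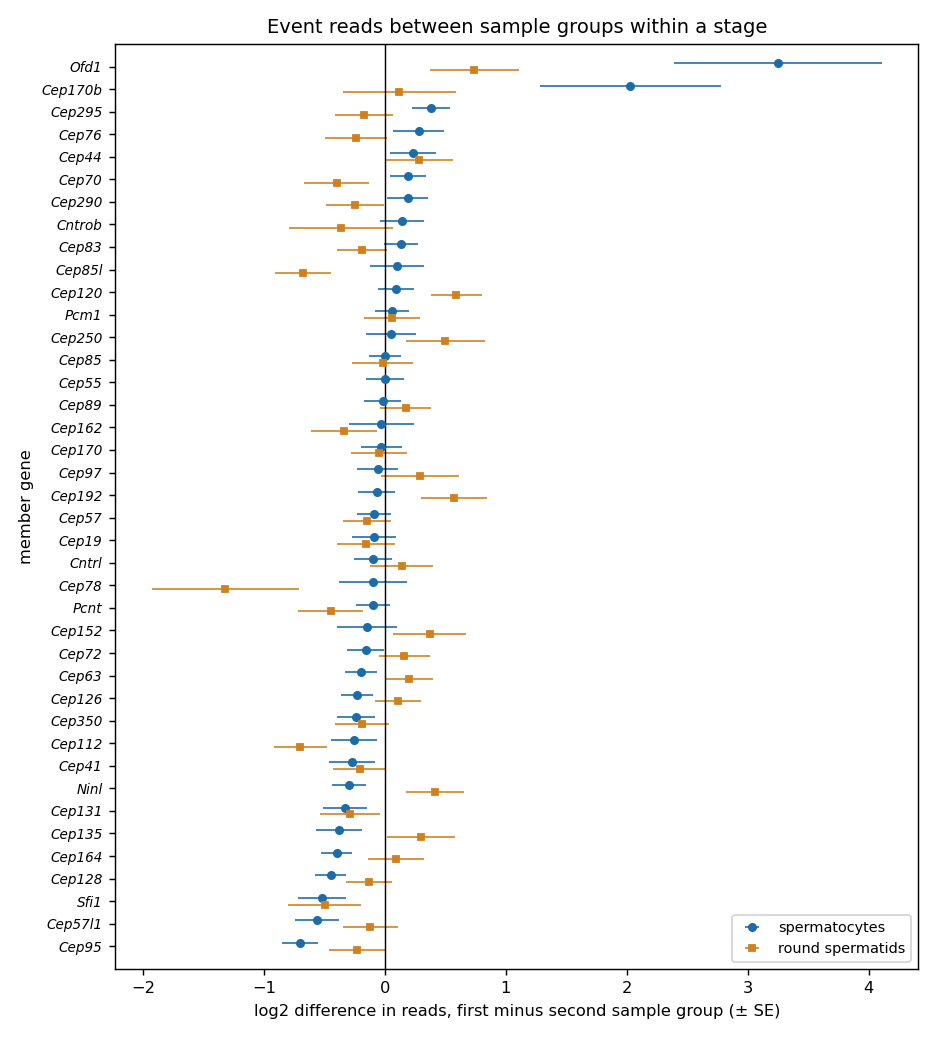
Log2 difference in event reads, first minus second sample group, for 40 of the 41 members tested in spermatocytes (blue circles, ordered by size) and the same genes in round spermatids (orange squares), with bars for the SE of the limma fits. In spermatocytes Ofd1 at 3.25 and Cep95 at -0.70 were called, and in round spermatids none was.

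In round spermatids limma called 0 of 399 member events and 0 of 41 members by reads, where 0.131% of all events and 0.0859% of all genes were called. At an unadjusted p under 0.05 there were 21 member events (5.26%, against 5.88% of all events) and 5 genes (12.2%, against 11.0%). The quasi-binomial test called 0 events, the fit of all 8 libraries 1 and the authors' deposited FDR, with a level difference of at least 0.1, 2. The 5 genes were Cep112, Cep85l, Cep120, Cep78 and Cep192. Cep112 stood at 218 and 292 (first group) against 449 and 373 (log2 -0.70, SE 0.22, limma adjusted p 0.232), without overlap. Cep120 stood at 170 and 160 against 112 and 107 (log2 0.59, SE 0.21, limma adjusted p 0.309). Whether a difference between sample groups depends on the stage was not tested.

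Other centriole and centrosome genes were taken from a list of 93 symbols. Between stages 25 of 80 tested were higher and 31 lower in reads under summed reads, with a median of -0.14, and 39 were higher and 27 lower under median-ratio scaling, with a median of 0.28. Of all genes 28.5% were higher and 49.8% lower under summed reads. Of 476 events of the list 64 in 35 genes were called, where 12.5% of all events were. Deup1, which amplifies centrioles in multiciliated cells, stood at 51.1, 45.5, 56.1 and 68.7 in spermatocytes and 405, 444, 566 and 485 in round spermatids (log2 3.11, SE 0.12, limma adjusted p 3.96e-10). Its usual companions Foxj1, Mcidas and Ccno had no value in the stage tables. Sun5 and Pmfbp1, which join the sperm head to the tail, rose by 3.99 (SE 0.20) and 3.81 (SE 0.18), and Tubgcp5, a subunit of gamma-tubulin complexes, fell by 4.74 (SE 0.35). Between the spermatocyte groups 1 of 84 genes was called by reads, Ckap5, and 2 of 811 events. These were a 12-nt alternative 5 prime splice site of Ccdc61, at 75.8% and 69.6% against 93.0% and 93.7% (limma adjusted p 0.000311), and a 159-nt exon of Odf2l, at 68.1% and 61.9% against 83.9% and 84.2% (limma adjusted p 0.00743). In round spermatids 0 of 81 genes and 0 of 666 events of this list were called by limma.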

How the data were processed

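The deposited files are 10 tables of splicing events, 1 for each stage and event type, with 2 libraries joined in each cell. STAR and the mm10 build are named, per the submitters' processing notes. Their versions: not given in the sources used here. Per the file headers, the deposited tables hold read counts of inclusion and skipping forms, form lengths, inclusion levels as a fraction, the authors' p-value and FDR, and the level difference of the sample groups (a score from -1 to 1, per the file headers). Each inclusion form length was the alternative part plus 149, and levels recomputed from these counts lay within 0.0005 of the deposited fraction.

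Log2 odds of inclusion, per form length and weighted by the inverse counting variance, went into limma 3.58.1 (R 4.3.3). On average 0.5 reads, in proportion to the event's coverage, were added per form, with a variance trend on reads of the rarer form. Reads of a gene's most covered event (between stages, of those present in both) were fitted with limma as log2 CPM with 0.5 reads added. The Benjamini-Hochberg adjustment ran over all events or genes, with a threshold of 0.05. The fits within a stage used its 4 libraries, and the stage contrast all 8. The p-values measure the spread between these libraries, which may in part be technical. Overlapping events share reads, so library totals are unknown. Reads carry no molecular identifiers that the tables show. The code was checked on simulated data.

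The members, lists and fit were chosen with earlier results of these data known. Members with a called event or called reads are named. The values of 1 member are not reported here, though the counts include it. The planned exon sequences are not used here, and the promoter windows were chosen after the read values were seen. Figures used matplotlib 3.10.9 and Python 3.11.15.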

Additional observations from a re-analysis of the deposited data

How the results depend on the processing

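No paired analysis was possible because the joined values of a table cell carry no replicate number. Between spermatocyte groups the 4 member events became 0 with the trend on total reads, 0 with that trend and unscaled reads, 0 with no minimum of reads and 0 without weights, and 0 to 101 without 1 library. The 2 members called by reads became 6 with median-ratio scaling and 1 with at least 50 reads per library, and 0 to 3 without 1 library. In round spermatids the 0 member events became 1 in the fit of all 8 libraries and 2 by the deposited FDR, and 0 to 53 without 1 library, and the 0 members by reads 0 to 6. Between stages the 29 events became 19 with the trend on total reads, 17 with at least 5 reads of the rarer form and 16 without weights, against 42 with unscaled 0.5 reads, and 14 to 25 without 1 library, and the 28 members by reads 25 to 29. The causes were not tested. The replicate block was not run. Calls that rest on a rarer form of a few reads are limited by depth.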
